A study of Mus musculus with 64 samples.

Results

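The enzymes described here are the lysyl oxidase family (Lox, Loxl1, Loxl2, Loxl3 and Loxl4) and the procollagen lysyl hydroxylases (Plod1, Plod2 and Plod3), chosen by symbol from the gene table. They are 8 of its 30285 gene entries. All 8 passed the filter on low values, which asked for 1 FPKM or more in 4 or more of the 64 libraries and left 13653 genes for testing. Loxl4 passed only through TAC hearts, with 6 TAC libraries and 0 sham libraries at an FPKM of 1 or more, so its inclusion is tied to its higher level there. FPKM counts fragments of a gene relative to the size of its transcript and of the library, and it can be compared between genes as a level per length.

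RNA of 64 hearts was sequenced, 1 library per heart, to follow heart failure over time under a genetic and a mechanical stress. All animals were adult male C57BL6 mice, 3 to 4 months old at surgery. Wild type mice had sham surgery (WTSH) or trans-aortic constriction (WTTAC), in which a ligature narrows the aorta and overloads the left ventricle. Mice with cardiac deletion of Ndufs4, a subunit of mitochondrial complex I, had the same operations (KOSH and KOTAC). Sham surgery left out only the constriction. The knockout hearts carried loxP-flanked Ndufs4 and Cre recombinase under the αMHC promoter, which acts in cardiomyocytes, so that other cells of the heart keep the gene. Each of the 4 conditions was sampled at weeks 1, 2, 4 and 8 after surgery, with 4 hearts in each of the 16 groups and 16 hearts per condition. The labels name single hearts and do not say that animals were pooled.

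Collagen is stiffened by covalent bonds between lysine residues of neighbouring molecules, and these enzymes set how such bonds are made. The procollagen lysyl hydroxylases act first, inside the endoplasmic reticulum, where they turn lysines of new procollagen chains into hydroxylysines. Plod1 acts mainly on lysines within the triple helix, Plod2 on those of the telopeptides at the ends of the chain, and Plod3 also adds sugars to hydroxylysine. The lysyl oxidases act outside the cell as copper-dependent amine oxidases: they oxidise lysine and hydroxylysine side chains to aldehydes, which then react into crosslinks. Lox and Loxl1 are made as proenzymes that are cleaved after secretion, and Loxl1 is known for its part in elastic fibres. Loxl2, Loxl3 and Loxl4 carry scavenger receptor domains instead. In the overloaded heart, fibroblasts are known as the main source of fibrillar collagen and of the enzymes that crosslink it.

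Promoter sequences were taken from RefSeq on build GRCm38.p6, which held windows for 3 of the 8 genes, Loxl4, Plod1 and Plod3. They are shown because these enzymes, of widely different base level, were all higher after TAC. Each window holds 300 bases that span the start of the gene, on the strand of the gene, 5′ to 3′. Capitals mark the motifs searched on both strands. They were ACGTG, the core letters of a hypoxia factor site, and its close form GCGTG, then CAGAC for SMAD factors, CATTCC for TEAD factors, TGACTCA for the factor AP-1, and TATAAA for the TATA box. The windows lie at chr19:42612757-42613056 (minus strand, Loxl4), chr4:147936727-147937026 (minus strand, Plod1) and chr5:136986769-136987068 (plus strand, Plod3).
Loxl4: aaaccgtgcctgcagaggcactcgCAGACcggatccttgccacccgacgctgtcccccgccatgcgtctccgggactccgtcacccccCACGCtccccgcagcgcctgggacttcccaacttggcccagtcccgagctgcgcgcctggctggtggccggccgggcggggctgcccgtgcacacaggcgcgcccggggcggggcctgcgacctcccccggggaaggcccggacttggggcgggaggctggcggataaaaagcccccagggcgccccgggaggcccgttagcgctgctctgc
Plod1: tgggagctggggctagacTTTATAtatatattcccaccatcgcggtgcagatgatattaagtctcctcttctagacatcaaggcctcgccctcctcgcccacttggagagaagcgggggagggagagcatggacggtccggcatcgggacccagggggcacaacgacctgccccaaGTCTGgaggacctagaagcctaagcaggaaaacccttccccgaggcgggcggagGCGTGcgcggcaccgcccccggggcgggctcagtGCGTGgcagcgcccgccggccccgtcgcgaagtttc
Plod3: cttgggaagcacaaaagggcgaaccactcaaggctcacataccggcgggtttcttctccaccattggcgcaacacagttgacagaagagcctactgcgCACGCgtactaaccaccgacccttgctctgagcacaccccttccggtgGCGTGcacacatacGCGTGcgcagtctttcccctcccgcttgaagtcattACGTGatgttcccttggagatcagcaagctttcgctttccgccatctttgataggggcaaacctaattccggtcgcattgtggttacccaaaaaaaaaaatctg
GCGTG was found in all 3 windows and is in 32.4% of 32817 promoters of this length. It begins at position -162 of Loxl4, on the opposite strand, at -20 and 15 of Plod1, and at -104, -90 and, on the opposite strand, -152 of Plod3, counted from the start of the gene. ACGTG (19.6% of promoters) was found only in the window of Plod3, at -54. CAGAC (49.6%) was found at -226 of Loxl4 and, on the opposite strand, at -74 of Plod1. TATAAA (13.6%) was found in Plod1 alone, on the opposite strand at -232. CATTCC (14.7%) and TGACTCA (5.2%) were in none of the 3 windows. The 3 windows are rich in CpG: 32 CpG pairs and 75.0% GC in Loxl4, 25 and 64.3% in Plod1, and 19 and 53.3% in Plod3, against medians of 7 pairs and 52.7% over all promoters.

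In mm9, the build to which the authors mapped the reads, Loxl1 lies at chr9:58135530-58161019 (7 exons in its longest coding transcript), Loxl2 at chr14:70008978-70095640 (14 exons) and Loxl3 at chr6:82984167-83002556 (14 exons). Loxl4 lies at chr19:42668472-42687303 (15 exons) and Lox on chromosome 18 (8 exons). Plod1 lies at chr4:147283862-147310876 (19 exons), Plod2 at chr9:92437061-92503266 (20 exons) and Plod3 at chr5:137462889-137472518 (19 exons). In GENCODE models, the exons of Loxl3 overlap those of Htra2 by 535 bases and the exons of Plod3 overlap those of Znhit1 by 529 bases, on the opposite strand in both cases. The library kit does not mark strand, so reads from these stretches cannot be told apart. The mean FPKM of Htra2 in TAC over sham hearts was 1.10 in wild type and 1.08 in knockout, and that of Znhit1 was 1.16 and 1.20, below the same ratios of Loxl3 (6.66 and 6.89) and Plod3 (1.84 and 1.85).

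The depth of the libraries could be read in relative terms only. Low FPKM values fell on steps of 1 fragment, and the steps gave each library a depth between 0.365 and 2.16 times the median library, with group medians of 0.934 (WTSH), 0.978 (KOSH), 1.09 (WTTAC) and 0.981 (KOTAC). KOTAC heart 1 of week 4 was the shallowest, at 0.365. Ndufs4 itself was at 75.3 to 155 FPKM in WTSH, 59.0 to 188 in WTTAC, 22.4 to 39.4 in KOSH and 20.3 to 43.8 in KOTAC, with no overlap between genotypes. In 4 of the 64 libraries (hearts 3 and 4 of WTTAC and of KOTAC at week 2) longer transcripts had lower values, with slopes of -0.120 to -0.0991 (log2 FPKM for each doubling of transcript length) against -0.0479 to 0.0605 in the other 60. The results that rest on these libraries are given with and without them. The defining cardiomyocyte genes were abundant in every condition (summed FPKM of 8 markers 25300 to 38300), although Myh6 was listed at 0 in some sham hearts. Lung markers summed to at most 0.56 FPKM in any heart.

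In sham hearts Plod1 and Plod3 had the highest levels per length and Loxl1 came next, ahead of Plod2. In WTSH, Plod1 had a median of 25.9 FPKM, Plod3 11.1, Loxl1 8.17, Plod2 6.06, Loxl2 3.77, Loxl3 1.22, Lox 0.988 and Loxl4 0.252. Plod1 was above Plod3, Loxl2 above Loxl3, and Lox above Loxl4 in 16 of 16 hearts without overlap of the ranges. Plod3 and Loxl1 overlapped, as did Loxl1 and Plod2, and Loxl3 exceeded Lox in 15 of 16 hearts with overlapping ranges. KOSH had the same order, with Loxl3 above Lox in only 10 of 16 hearts. With the weeks pooled, the order after TAC was another. Loxl1 was first at a median of 31.4 FPKM in WTTAC and 37.7 in KOTAC, ahead of Plod1 (30.1 and 33.7). It exceeded Plod1 in only 9 and 10 of 16 hearts. Plod1 was first in WTTAC at weeks 2 (41.6, Loxl1 25.3) and 4 (29.2, Loxl1 25.1), and in KOTAC at week 4 (31.6, Loxl1 27.7). Lox moved from place 7 to place 5 in both genotypes, at 11.9 FPKM in WTTAC and 13.7 in KOTAC. Its ranges overlapped those of Loxl2 and Plod2. By week (1, 2, 4 and 8), Lox held places 2, 6, 6 and 4 in WTTAC and 3, 5, 6 and 4 in KOTAC.

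**Figure D1:**
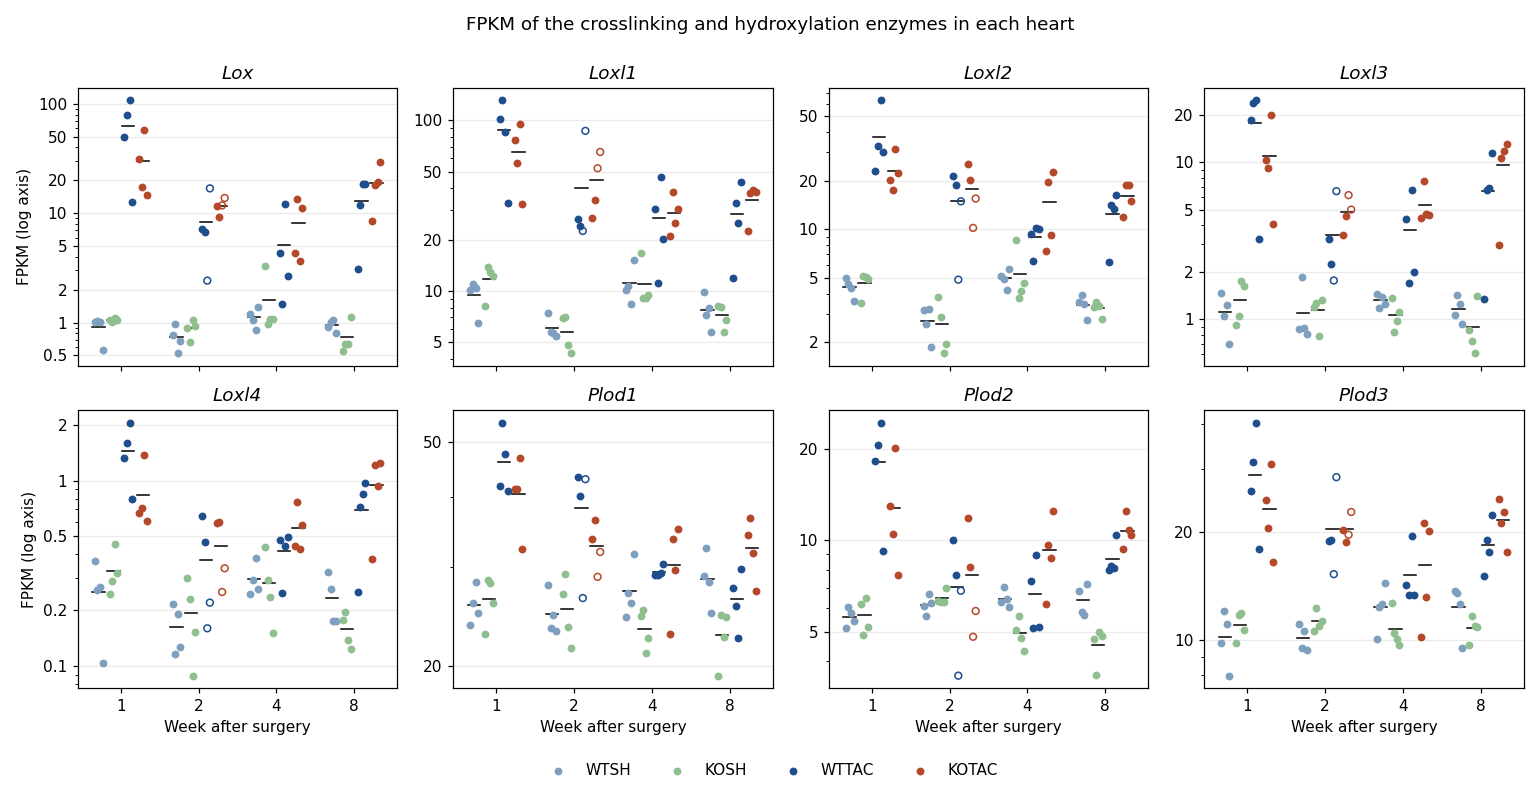
FPKM (log axis) of each enzyme in each of 64 hearts, by week after surgery and condition; each point is 1 heart, black lines are means of 4 hearts, and open circles are the 4 libraries in which expression fell with transcript length. The TAC hearts of Lox lie between 1.49 and 108 FPKM, the sham hearts between 0.524 and 3.28, while Plod1 stays between 19.2 and 54.2 in all hearts.

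The first question was how TAC changed these enzymes within each genotype, averaging the weekly differences. All 8 genes were higher in WTTAC than in WTSH by limma at an adjusted p under 0.05, where 48.2% of all genes tested were called higher. In the knockout, all 8 were higher in KOTAC than in KOSH, where 48% of all genes were called higher. These counts are a description, since Loxl4 entered the test only through TAC hearts. A call alone is common in these comparisons, and the size of the difference sets the genes apart from the typical one: the median difference of the 8 genes was 1.18 on the log2(FPKM + 1) scale in wild type and 1.34 in knockout, against 0.14 and 0.13 over all genes. This scale understates the change of genes of low level, Lox, Loxl3 and Loxl4 above all. KOTAC compared with WTSH, which uses the same WTSH hearts, called 8 of 8 higher (43.3% of all genes), with differences from 0.33 (Plod1) to 2.97 (Lox).

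Lox, the founding member of the family, had the largest rise of the 8. It ranged from 0.524 to 1.38 FPKM (median 0.988) in WTSH and from 1.49 to 108 (median 11.9) in WTTAC. All 16 WTTAC hearts were above all 16 WTSH hearts, a separation that only 0.183% of all genes showed. The log2 difference was 2.70 (SE 0.23, adjusted p = 1.61e-13), and the ratio of mean FPKM was 24.0. In the knockout, Lox ranged from 0.548 to 3.28 (median 1.03) in KOSH and from 3.64 to 57.7 (median 13.7) in KOTAC, again without overlap, with a log2 difference of 2.90 (SE 0.23, adjusted p = 6.08e-15). The highest KOSH value, 3.28 in heart 1 of week 4, stood apart from the other 15, of which the highest was 1.13.

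Loxl1, the enzyme tied to elastic fibres, was the most abundant oxidase in every condition. It went from a median of 8.17 FPKM (5.42 to 15.2) in WTSH to 31.4 (11.2 to 131) in WTTAC, a log2 difference of 1.98 (SE 0.18, adjusted p = 1.2e-12). In the knockout it went from 8.18 (4.32 to 16.6) to 37.7 (21.1 to 95.6), a difference of 2.10 (SE 0.18, adjusted p = 9.02e-14). The ranges overlapped in wild type and did not in knockout. All KOTAC hearts lay above all KOSH hearts for Lox, Loxl1 and Loxl3, a separation shown by 2.66% of all genes.

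Loxl2, which also acts on the collagen of basement membranes, rose by 1.74 (SE 0.15, adjusted p = 2.28e-13) in wild type, from a median of 3.77 FPKM (1.88 to 5.64) to 14.5 (4.88 to 62.8). In the knockout it rose by 1.91 (SE 0.15, adjusted p = 5.24e-15), from 3.66 (1.71 to 8.63) to 18.8 (7.35 to 31.5). Over the 4 weeks together its values after TAC had an SD of 14.4 FPKM around a mean of 18.4 in wild type. In knockout the SD was 6.30 around 17.9. These SDs include the change between weeks. Within weeks 1, 2, 4 and 8 the SD was 17.6, 7.23, 1.81 and 4.31 in WTTAC. In KOTAC it was 6.03, 6.49, 7.53 and 3.35, larger than in WTTAC at week 4.

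Loxl3 rose by 1.58 (SE 0.20, adjusted p = 3.53e-09) in wild type, from a median of 1.22 FPKM (0.696 to 1.86) to 5.44 (1.35 to 24.8). In the knockout the rise was 1.89 (SE 0.20, adjusted p = 2.31e-11), from 1.09 (0.609 to 1.76) to 5.59 (2.96 to 20.1). Loxl4, the oxidase of lowest level, stayed below that of the other members in every condition's median: 0.252 FPKM in WTSH, 0.571 (0.160 to 2.05) in WTTAC, 0.233 in KOSH and 0.602 (0.251 to 1.37) in KOTAC. Its log2 differences were 0.43 (SE 0.067, adjusted p = 2.32e-07) and 0.43 (SE 0.067, adjusted p = 2.13e-07), small on this scale because the pseudocount exceeds the sham values. Loxl4 entered the test only through TAC hearts, so its p-values and calls against sham, here and by week, are a description. Quantile normalization gave 0.255 and 0.272. The ratios of its mean FPKM were 3.10 in wild type and 2.91 in knockout, which lie above those of the 3 hydroxylases.

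The hydroxylases rose less. Plod3, the form that also glycosylates, had the largest difference of the 3: 0.77 (SE 0.091, adjusted p = 5.46e-10) in wild type, from a median of 11.1 FPKM (7.98 to 14.5) to 18.9 (13.4 to 40.4), and 0.80 (SE 0.091, adjusted p = 1.35e-10) in knockout, from 10.9 (9.73 to 12.7) to 20.5 (10.2 to 31.0). Plod2, the telopeptide hydroxylase, rose by 0.49 (SE 0.11, adjusted p = 0.000117) in wild type and by 0.74 (SE 0.11, adjusted p = 6.48e-08) in knockout. Its medians went from 6.06 to 8.19 and from 5.13 to 10.0 FPKM. Plod1, the helical hydroxylase and the most abundant of the 8 in sham hearts, rose by 0.35 (SE 0.063, adjusted p = 4.81e-06) in wild type and by 0.45 (SE 0.063, adjusted p = 2.31e-08) in knockout. Its medians went from 25.9 to 30.1 and from 24.5 to 33.7 FPKM, with overlapping ranges in both genotypes. The size of this rise depended on scaling: it was 0.186 and 0.288 with median-of-ratios scaling and 0.19 and 0.274 with quantile normalization, still called.

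The next question was when after surgery these enzymes differed. At week 1 all 8 genes were higher after TAC in wild type (51.2% of all genes) and in knockout (31.9%). In knockout the call of Loxl4 (0.46) was lost with quantile normalization (0.222, adjusted p = 0.144) and without KOTAC heart 3 (0.33, adjusted p = 0.0692). For each of the 8 all 4 TAC hearts lay above all 4 sham hearts in both genotypes, a separation shown by 45.5% and 30.6% of all genes. Lox was at 49.9, 79.2, 108 and 12.8 FPKM in the WTTAC hearts of week 1 and at 1.02, 1.03, 1.01 and 0.567 in the WTSH hearts, a 69.0-fold ratio of the means and a log2 difference of 4.72 (SE 0.46, adjusted p = 3.02e-11). In KOTAC it was at 31.1, 17.4, 57.7 and 14.7, against 1.06, 1.02, 1.11 and 1.05 in KOSH, a 28.6-fold ratio and a log2 difference of 3.72 (SE 0.46, adjusted p = 5.38e-08). No TAC heart of week 1 was within the range of the sham hearts for Lox, and the lowest of the wild type, heart 5, was lowest for 7 of the 8 genes in its group.

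At week 2, 6 of the 8 were higher in wild type (35.8% of all genes) and 6 in knockout (24.6%). Loxl4 and Plod2 were not called in either genotype, although both were in each genotype with array weights. Loxl4 had differences of 0.23 and 0.27, and without the 4 length-slope libraries 0.42 in each, called in wild type (adjusted p = 0.045) and not in knockout (adjusted p = 0.0505). With a pseudocount of 0.1 Loxl4 was called in knockout (0.888, adjusted p = 0.0302). Plod2 was at 10.0, 7.69, 3.59 and 6.83 FPKM in WTTAC and at 11.9, 8.19, 4.82 and 5.86 in KOTAC, against 5.65 to 6.69 in WTSH and 6.27 to 7.00 in KOSH. The 2 lower values of each TAC group are those of hearts 3 and 4, the libraries with the length slope. The differences of Plod2 were 0.10 (SE 0.22, adjusted p = 0.725) in wild type and 0.15 (SE 0.22, adjusted p = 0.595) in knockout, and without those libraries 0.46 (adjusted p = 0.145) and 0.55 (adjusted p = 0.0881). The first of these turned to -0.08 with median-of-ratios scaling and -0.07 with quantile normalization. The call of Loxl3 at week 2, 1.00 (SE 0.40, adjusted p = 0.0369) in wild type and 1.42 (SE 0.40, adjusted p = 0.00389) in knockout, was lost without the 4 libraries (0.85, adjusted p = 0.203, and 1.22, adjusted p = 0.0696). In wild type it was also lost when all genes were tested (adjusted p = 0.0633), with both other scalings and with only the hearts compared. The same held without WTSH heart 1, 3 or 4 or WTTAC heart 1 or 4 of week 2 (0.71, adjusted p = 0.203, without the last of these). Without the 4 length-slope libraries the wild type differences of Loxl2 and Plod1 went from 1.96 to 2.52 and from 0.59 to 0.74, and that of Loxl1 from 2.30 to 1.90, all still called. In knockout the call of Plod1 at week 2 (0.367) was lost with only the hearts compared (adjusted p = 0.0629). It was also lost without KOSH heart 4 (0.297, adjusted p = 0.0785) or KOTAC heart 2 of week 2 (0.315, adjusted p = 0.051).

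At week 2 all 4 TAC hearts lay above all 4 sham hearts for 4 of the 8 in wild type (25.8% of all genes) and 5 in knockout (20.3%). At week 4 no gene of the 8 was called in wild type, where only 0.0439% of all genes were higher. Of all genes, 1561 had an unadjusted p under 0.05, among them Lox, Loxl1, Loxl2 and Loxl3. Lox was at 4.35, 1.49, 12.1 and 2.65 FPKM in the WTTAC hearts, all above the WTSH hearts (0.848 to 1.38), and its difference was 1.25 (SE 0.46, adjusted p = 0.249). The hearts did not overlap for 3 of the 8 in wild type (3.22% of all genes) and for 4 in knockout (12%). In the knockout, Lox, Loxl1, Loxl2, Loxl3 and Plod2 were higher (8.27% of all genes), with differences from 0.76 (Plod2, adjusted p = 0.0204) to 1.73 (Lox, adjusted p = 0.0126). These calls rested on few hearts: without KOTAC heart 5 of week 4 only Loxl3 was left, without KOTAC heart 2 only Loxl2 and Loxl3, and without the shallow KOTAC heart 1 Plod1 and Plod3 were called as well. Without KOSH heart 3 or heart 4, Loxl1 and Plod2 were lost.

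At week 8, 6 of the 8 were higher in wild type (10.3% of all genes) and 8 in knockout (34.6%). In wild type the calls of Loxl4 (0.44) and Plod3 (0.54) were lost without WTTAC heart 6 or heart 7. That of Plod3 was also lost without WTSH heart 3 or 4 or WTTAC heart 5, and when all genes were tested (adjusted p = 0.0519), and that of Loxl4 with only the hearts compared (adjusted p = 0.0582). In the knockout each of the 8 had all 4 TAC hearts above all 4 sham hearts (35.4% of all genes did), and in wild type 5 did (14%). Lox was at 3.10, 11.8, 18.7 and 18.5 FPKM in WTTAC and at 8.45, 18.3, 19.3 and 29.2 in KOTAC, against 0.807 to 1.05 in WTSH and 0.548 to 1.13 in KOSH. Plod1 and Plod2 were the 2 genes not called in wild type. Plod2 had a difference of 0.39, with 8.02 to 10.4 FPKM in WTTAC and 5.67 to 7.18 in WTSH, without overlap. It was called with array weights (adjusted p = 0.0272) and with only the hearts compared (adjusted p = 0.0392). Plod1 was at 27.5, 25.6, 22.4 and 29.7 FPKM in WTTAC and 28.9, 32.4, 28.2 and 24.8 in WTSH, a difference of -0.12 (SE 0.13, adjusted p = 0.608) and the only weekly difference of the 8 below 0. In the knockout it was at 34.2, 36.7, 31.7 and 27.2 after TAC and 19.2, 24.6, 22.5 and 24.4 after sham, a difference of 0.50 (SE 0.13, adjusted p = 0.00158). Under median-of-ratios scaling the latter was 0.245 (adjusted p = 0.0652) and under quantile normalization 0.216 (adjusted p = 0.132).

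**Figure D2:**
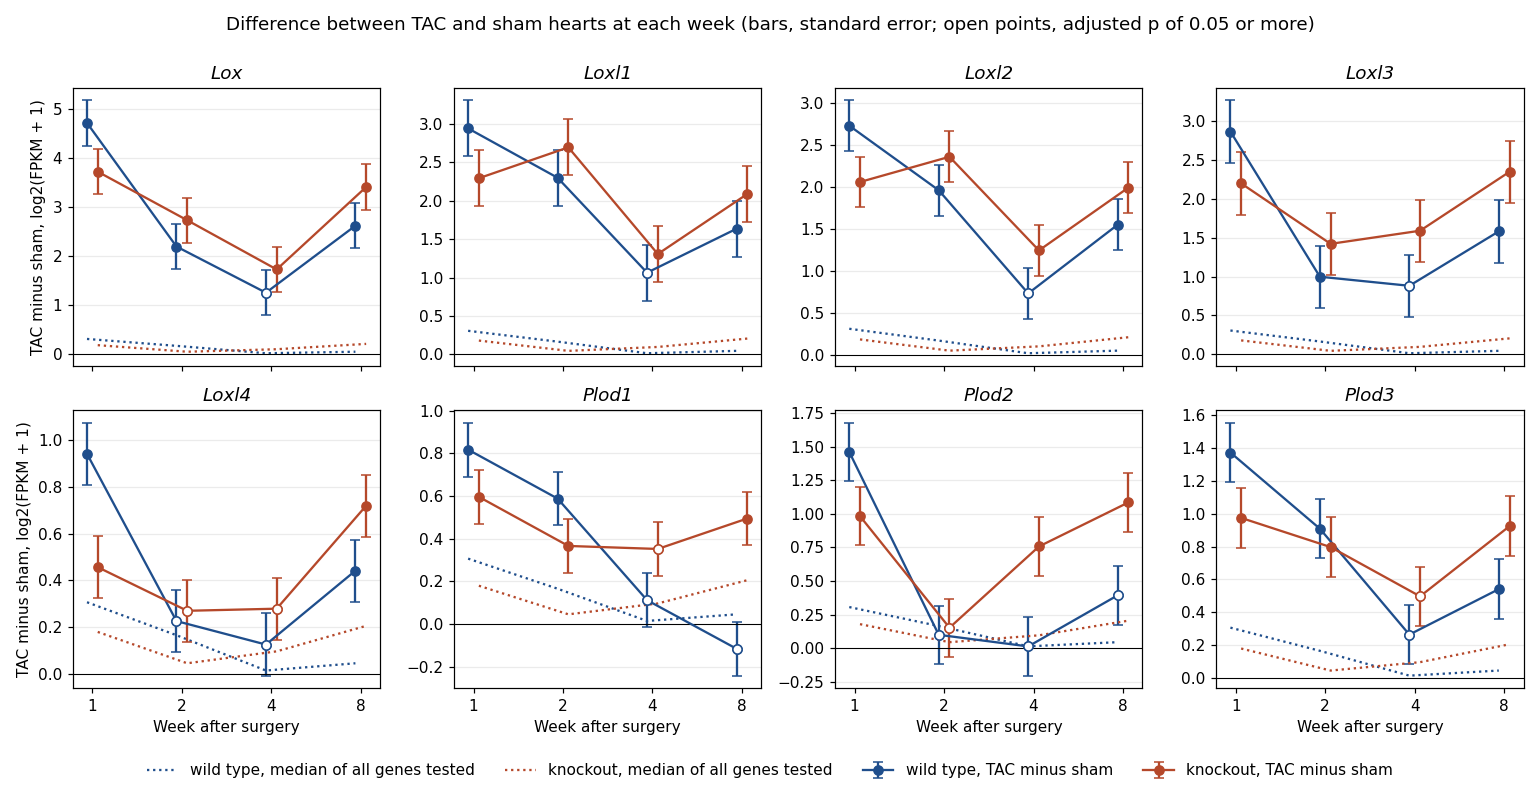
Difference between TAC and sham hearts on the log2(FPKM + 1) scale at each week, in wild type (blue) and knockout (red), for each enzyme; bars are standard errors of the limma fit, filled points have an adjusted p under 0.05, open points do not, and dotted lines are the medians of all 13653 genes tested. In wild type Lox goes from 4.72 at week 1 to 1.25 at week 4 and 2.62 at week 8, and no wild type point at week 4 is filled.

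The change of the TAC effect over time was tested directly, as the mean of both genotypes. From week 1 to week 4 the effect fell for all 8 genes (25.8% of all genes were called lower), by 2.73 for Lox (SE 0.46, adjusted p = 3.56e-05), 1.43 for Loxl1, 1.41 for Loxl2, 1.29 for Loxl3, 0.50 for Loxl4, 0.47 for Plod1, 0.84 for Plod2 and 0.79 for Plod3. Loxl3 and Plod1 lost the call with median-of-ratios scaling (-1.10, adjusted p = 0.0518, and -0.24, adjusted p = 0.122), and these 2 and Loxl4 lost it with quantile normalization. The median over the 8 was -1.06, against -0.19 over all genes. From week 1 to week 2 it fell for 4 of them (27.6% of all genes): by 1.76 for Lox (adjusted p = 0.00408), 1.32 for Loxl3 (adjusted p = 0.0111), 1.09 for Plod2 (adjusted p = 0.00035) and 0.45 for Loxl4 (adjusted p = 0.00928). Loxl1 (-0.12) and Loxl2 (-0.23) were not called, with adjusted p of 0.822 and 0.564. Without the 4 length-slope libraries their values were -0.55 and 0.24, still not called, and the fall of Loxl4 was lost (-0.28, adjusted p = 0.185). The call of Loxl4 was also lost with a pseudocount of 0.1 (adjusted p = 0.0635) and with quantile normalization (-0.30, adjusted p = 0.0609).

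By week 8 only Plod1 had an effect below that of week 1 by the test (13.6% of all genes), by 0.52 (SE 0.13, adjusted p = 0.00305). Lox differed by -1.21 (SE 0.46, adjusted p = 0.0683). Without WTTAC heart 5 of week 1, in which 7 genes were lowest, Lox (-1.51, adjusted p = 0.0074), Loxl1, Plod2 and Plod3 were called too, and without KOTAC heart 6 of week 1 Lox, Plod2 and Plod3 were. From week 4 to week 8, a comparison chosen after the weekly values were seen, no gene of the 8 was called (0.33% of all genes were higher), with 1.53 for Lox (SE 0.46, adjusted p = 0.117) and 0.38 for Loxl4 (SE 0.13, adjusted p = 0.183). At an unadjusted p under 0.05 there were 3 of the 8 and 1749 of all genes. Sham hearts of week 8 against week 1 gave no call among the 8 (0.315% of all genes in either direction), with values from -0.45 (Loxl1, 95% interval -0.97 to 0.07) to 0.12 (Plod3).

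The third question was whether Ndufs4 deletion moved these enzymes. In sham hearts none of the 8 was called between genotypes by limma (0.0513% of all genes were called in either direction, 7 of 13653). At an unadjusted p under 0.05 there were 631 genes and none of the 8. The differences, knockout minus wild type, lay between -0.17 (Plod2, 95% interval -0.38 to 0.05) and 0.07 (Lox, -0.39 to 0.53). In TAC hearts none of the 8 was called either (0.82% of all genes, 112 of 13653), and none was among 1821 genes with an unadjusted p under 0.05. The differences lay between -0.02 (Plod1, -0.15 to 0.11) and 0.27 (Lox, -0.19 to 0.74). For Plod3 the difference in TAC hearts was 0.00 with an interval of -0.18 to 0.18, and for Lox the interval still holds a difference of 0.7, so the precision differs between genes.

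The TAC effect of the knockout minus that of the wild type was positive for 7 of the 8 over the mean of 4 weeks and called for none (0% of all genes, with 312 at an unadjusted p under 0.05 and none of the 8 among them). It was largest for Loxl3 (0.31, 95% interval -0.26 to 0.88) and Plod2 (0.25, -0.06 to 0.56) and -0.00 for Loxl4 (-0.19 to 0.19). Week by week, in comparisons chosen after the weekly values were seen, all 8 values were below 0 at week 1 and all 8 above 0 at weeks 4 and 8, and none passed the adjusted threshold at any week (0% of all genes). The medians over the 8 were -0.57 at week 1, 0.22 at week 2, 0.36 at week 4 and 0.53 at week 8. The medians of all genes were -0.14, -0.11, 0.08 and 0.16, so the sign was that of all genes except at week 2. The smallest unadjusted p was that of Plod1 at week 8, with a value of 0.61 (95% interval 0.25 to 0.97, adjusted p = 0.461 by limma).

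The composition of the oxidase family differed between sham and TAC hearts. The summed FPKM of the 5 oxidases had a median of 14.6 (8.92 to 23.7) in WTSH and 65.4 (21.0 to 284) in WTTAC, and 13.6 (8.45 to 30.3) in KOSH and 80.1 (37.6 to 206) in KOTAC. Lox made up 6.36% ± 1.08 (SD, n = 16) of the sum in WTSH and 17.2% ± 9.10 in WTTAC, and 7.09% ± 2.49 in KOSH and 18.1% ± 5.68 in KOTAC. Over all weeks the share of Loxl1 went the other way, from 57.6% ± 3.74 to 51.6% ± 10.8 and from 58.0% ± 3.89 to 50.1% ± 8.26. This was not so at every week. At weeks 1, 2, 4 and 8 it was 58.6, 56.4, 58.5 and 56.9% in WTSH and 43.1, 57.8, 58.3 and 47.1% in WTTAC. In KOSH it was 61.2, 54.4, 57.9 and 58.6%, and in KOTAC 50.2, 54.9, 51.4 and 43.8%. The ranges of the Lox and Loxl1 shares overlapped between sham and TAC hearts in each genotype, and the shares were not tested. Among the hydroxylases, Plod3 took 25.6% ± 1.95 in WTSH and 31.4% ± 3.90 in WTTAC, Plod1 60.4% ± 1.94 and 53.9% ± 6.12, and Plod2 14.1% ± 1.67 and 14.6% ± 4.08.

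**Figure D3:**
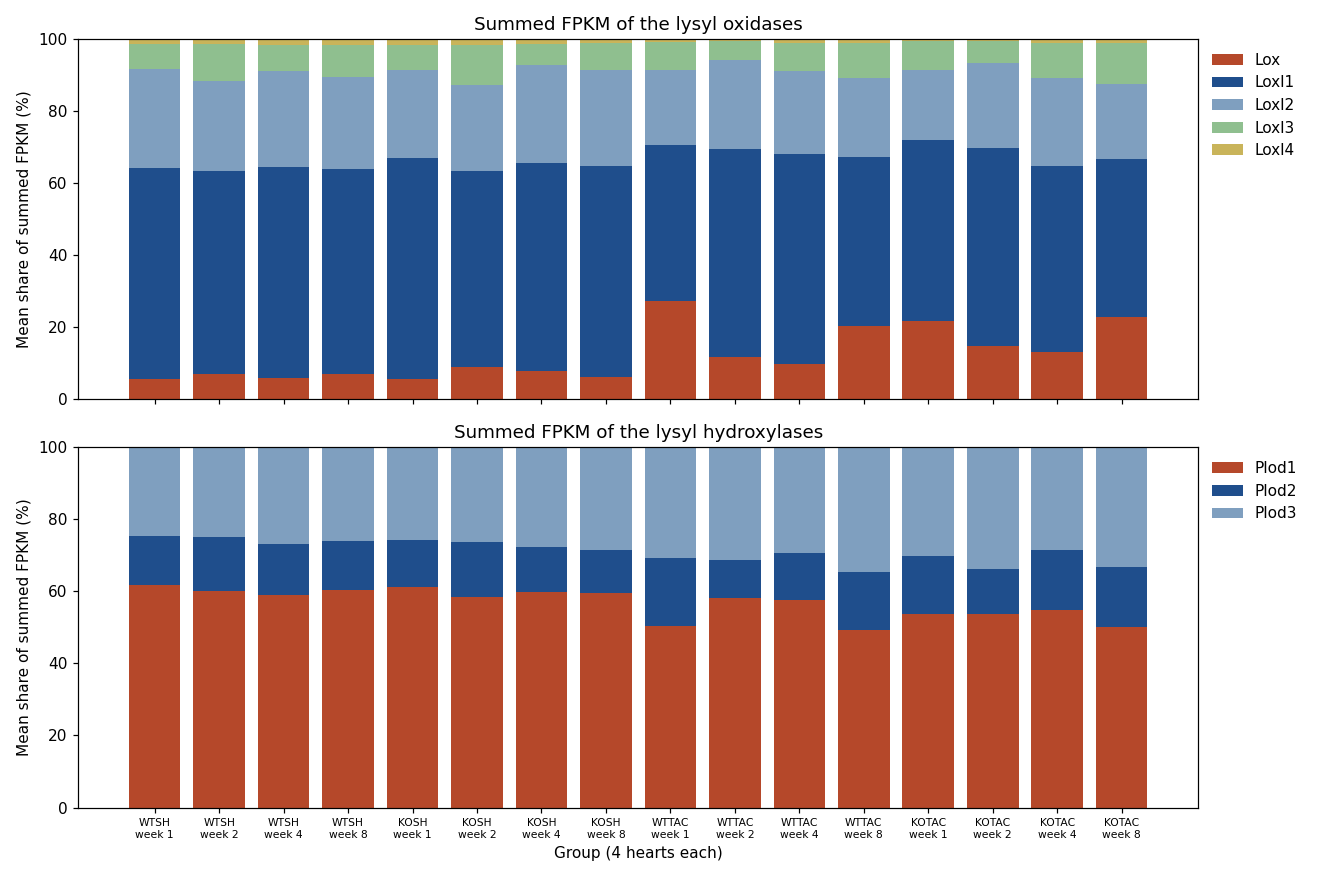
Mean share of each gene (%) in the summed FPKM of the 5 lysyl oxidases (top) and of the 3 lysyl hydroxylases (bottom) in each of 16 groups of 4 hearts. In the top panel the red part at the base, Lox, averages 6.36% over the WTSH hearts and 17.2% over the WTTAC hearts, and the Plod3 share goes from 25.6% to 31.4%.

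The substrates of these enzymes rose with them. Of 10 fibrillar collagen and elastin genes listed, 8 were tested and 8 were higher after TAC in each genotype. Of all genes, 48.2% were called higher in wild type and 48% in knockout. The median difference of the 8 was 2.17 in wild type and 2.42 in knockout, against 0.14 and 0.13 over all genes. Col5a2, a minor fibrillar collagen that joins type I fibrils, rose by 2.44 and 2.69, Col5a1 by 1.68 and 1.86, Col5a3 by 1.38 and 1.17, and Col3a1 by 2.35 and 2.62. Set against Col1a1, the main collagen of scar, the members did not keep one ratio. Lox per 100 FPKM of Col1a1 had a median of 5.89 (4.44 to 9.35) in WTSH and 12.6 (6.79 to 53.4) in WTTAC. In KOSH it had 6.19 (3.78 to 14.1) and in KOTAC 14.6 (6.55 to 51.7), so the ranges overlapped in both genotypes. Loxl1 had 55.5 (45.8 to 77.2) in WTSH and 51.1 (13.6 to 135) in WTTAC. In KOSH it had 56.5 (46.2 to 74.1) and in KOTAC 46.6 (21.3 to 74.5), so its ranges overlapped in both genotypes. Plod1 had 190 (124 to 240) in WTSH and 52.8 (7.59 to 158) in WTTAC, and 173 (105 to 290) in KOSH and 43.2 (10.4 to 89.8) in KOTAC, and only the knockout ranges were apart. The wild type medians of Plod2 were 41.9 and 13.8, and those of Plod3 76.7 and 31.2. All these medians pool the weeks. In wild type at week 1, the mean FPKM in TAC over sham hearts was 9.23-fold for Loxl1 and 24.5-fold for Col1a1. At week 8 it was 3.67-fold and 3.3-fold. In the knockout it was 5.54-fold and 12.2-fold at week 1, and 4.77-fold and 4.75-fold at week 8. The ratios to Col1a1 are a description and were not tested.

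**Figure D4:**
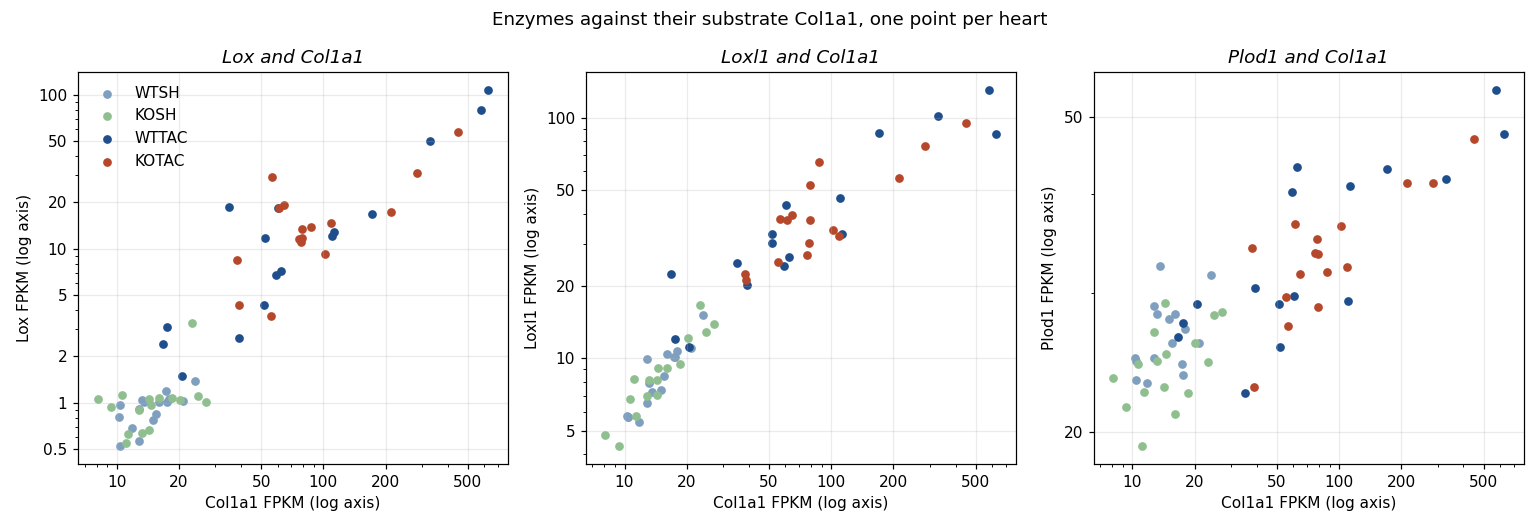
FPKM of Lox, Loxl1 and Plod1 against FPKM of Col1a1 in each of 64 hearts (log axes), coloured by condition. Over all weeks, Loxl1 per 100 FPKM of Col1a1 has a median of 55.5 (45.8 to 77.2) in WTSH and 51.1 (13.6 to 135) in WTTAC. That of Lox goes from 5.89 to 12.6, and that of Plod1 from 190 to 52.8. The WTSH and WTTAC ranges of this ratio overlap for each of these genes.

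Other steps of collagen making were read from lists of known genes. Counts of these lists and of the cell markers over the mean of 4 weeks are to be read against all genes. Of those, 48.2% were called higher in wild type and 48% in knockout, with median differences of 0.14 and 0.13. Of 15 genes of collagen folding and modification, 14 were higher and 1 was lower after TAC in each genotype, with medians of 0.66 in wild type and 0.73 in knockout. Leprel1 and Leprel2, prolyl hydroxylases of the endoplasmic reticulum, rose by 0.95 and 1.11 in wild type and by 0.90 and 1.21 in knockout. Lepre1, of the same family, rose by 0.66 and 0.73, and P4hb, the protein disulfide isomerase subunit of the main prolyl hydroxylase, by 0.61 and 0.66. The gene that fell was Leprel4, by 0.34 and 0.47 (adjusted p = 0.00112 and 1.3e-05), named after its values were seen.

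Of 10 genes of procollagen processing and pro-lysyl oxidase activation, 6 were tested and 6 were higher in each genotype. Bmp1, the proteinase that cleaves the propeptide of Lox, rose by 0.95 in wild type and 1.00 in knockout. Postn, a matrix protein that brings Bmp1 and Lox together, rose by 3.74 and 4.30, Adamts2, the procollagen N-proteinase, by 1.61 and 1.81, and Pcolce, an enhancer of Bmp1, by 1.37 and 1.60. Of 10 genes of other crosslinking and fibril assembly, 9 were tested and 8 were higher in each genotype. Fbn1, the fibrillin of microfibrils, rose by 1.95 and 2.01, and the proteoglycan Bgn by 2.16 and 2.46. Efemp2, which brings Lox to elastin, rose by 1.02 and 1.10, and the transglutaminase Tgm2 by 0.82 and 0.94.

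Copper supply and hypoxia-responsive genes moved less. Of 3 copper genes, only the chaperone Atox1 rose, by 0.57 in wild type and 0.60 in knockout, while Atp7a, the pump that loads secreted copper enzymes, had differences of 0.08 and 0.09 (adjusted p = 0.435 and 0.393) and the importer Slc31a1 0.10 and 0.06 (adjusted p = 0.165 and 0.385). Of 11 hypoxia-responsive genes, 8 were higher in wild type and 7 in knockout, with medians of 0.38 and 0.41. Pgk1 rose by 0.41 and 0.49, Ndrg1 by 0.38 and 0.38, Bnip3 by 0.48 and 0.56, and Ldha by 0.29 and 0.41. None of the genes on these lists was called between genotypes or in the interaction over the mean of 4 weeks.

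Markers of other cell types moved with the same comparison. All 10 fibroblast markers were higher after TAC in both genotypes, and their summed FPKM ranged from 260 to 481 in WTSH, 251 to 445 in KOSH, 395 to 3570 in WTTAC and 713 to 2740 in KOTAC. By week, 10, 10, 1 and 6 of the 10 were called higher at weeks 1, 2, 4 and 8 in wild type. In knockout 9, 10, 6 and 8 were. Of all genes, 51.2, 35.8, 0.0439 and 10.3% were called higher at those weeks in wild type, and 31.9, 24.6, 8.27 and 34.6% in knockout. Of 8 macrophage markers 7 were higher in each genotype, with sums of 102 to 215 in WTSH, 93.5 to 163 in KOSH, 108 to 670 in WTTAC and 133 to 459 in KOTAC. Smooth muscle and pericyte markers were higher for 5 of 7 in wild type and 6 of 7 in knockout, endothelial markers for 5 of 6 in each. Of 3 cartilage markers, 2 were tested and 1, Comp, was higher, by 2.91 in wild type and 3.42 in knockout, and their summed FPKM had medians of 0.809 in WTSH, 35.3 in WTTAC, 1.17 in KOSH and 27.9 in KOTAC. Of 3 endocardial or valve markers, 2 were tested, and 1 was higher in wild type and 2 in knockout, with median sums of 6.77, 8.62, 6.36 and 8.75 in the same order. Of 8 cardiomyocyte markers, 1 was higher and 3 were lower in each genotype. The part of these cells in the rise of the 8 enzymes was not tested, and in whole heart tissue more cells of a type and more RNA per cell cannot be told apart.

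Hearts of the same group differed widely after TAC, and the enzymes tended to be high or low in the same hearts. Among WTTAC hearts, heart 3 of week 2, a library with the length slope, was the lowest of its group for all 8 genes, heart 5 of week 1 and heart 2 of week 8 for 7, and heart 2 of week 4 for 6. Among KOTAC hearts, heart 6 of week 1 was lowest for 7, heart 1 of week 4, the shallowest library, for 6, and heart 3 of week 1 was highest for all 8. Heart 4 of WTTAC at week 1 was highest for 6, with 108 FPKM of Lox and 62.8 of Loxl2. Once the mean of each group was taken away, Pearson's r between pairs of the 8 over 64 hearts ran from 0.27 (Loxl3 and Plod1) to 0.88 (Lox and Loxl3). These r values are a description, since hearts share surgery and libraries differ in depth. Lox and Loxl1 had 0.81, Loxl1 and Loxl3 0.82, and Lox and Plod1 0.35. Loxl1 and Plod2 had 0.37 over 64 hearts and 0.60 over the 60 without the length slope, so that this pair moves with those libraries.

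**Figure D5:**
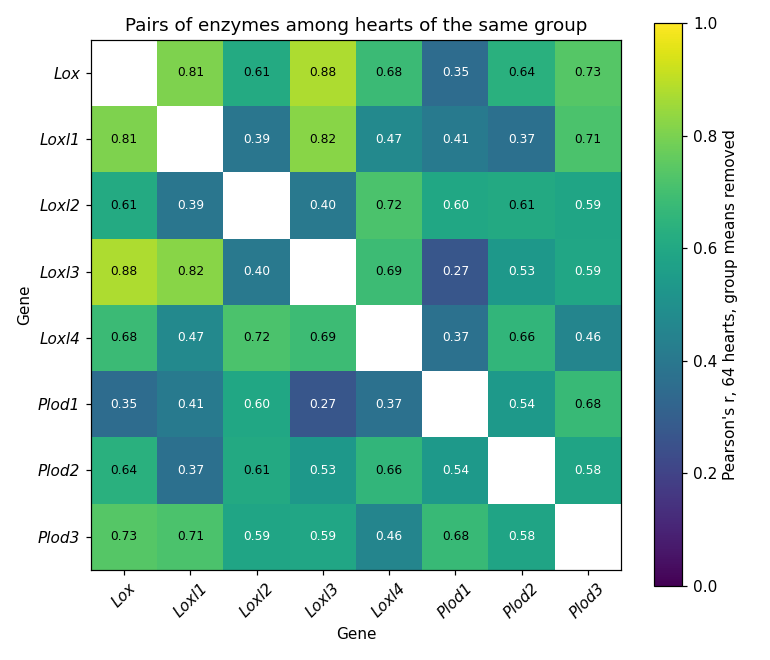
Pearson's r between each pair of enzymes over 64 hearts on the log2(FPKM + 1) scale, after the mean of each of the 16 groups was taken away. The pair of Lox and Loxl3 has the highest value, 0.88, and Loxl3 and Plod1 the lowest, 0.27.

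By the same measure, the genes most like each enzyme within groups were as follows. Lox was closest to Col5a2 (r = 0.924), Fn1 (0.909), the gene of fibronectin, and Ltbp3 (0.896), which binds latent TGF-β. Loxl3 was closest to Col12a1 (0.915), a collagen that sits on fibrils, Srpx2 (0.914) and Ltbp3 (0.905), and Loxl2 to Scml4 (0.865), Fbn1 (0.862) and the integrin subunit Itga5 (0.842). Loxl1 was closest to Lhfp (0.930), Vat1 (0.928) and the receptor Lrp1 (0.925), and Loxl4 to Myo9b (0.836), Dpysl3 (0.827) and Sema3b (0.823). Plod3 was closest to Pcolce (0.860), Zyx (0.847) and Sparc (0.843), a collagen-binding matrix protein. Plod1 was close to Pigt (0.813) and P4ha1 (0.794), a catalytic subunit of that prolyl hydroxylase, and Plod2 to Herpud2 (0.855), 9530068E07Rik (0.834) and Calu (0.83), a calcium-binding protein of the secretory pathway. Over all 64 hearts, with group means left in, Lox and Col5a2 had an r of 0.98, which carries the difference between TAC and sham.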

How the data were processed

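TruSeq libraries (RNA integrity number 8 or more) were read from both ends on a HiSeq2000. After FastQC, the authors aligned the reads to mm9 using TopHat. Reads with a single position and few mismatches went into Cufflinks, which gave FPKM for Ensembl genes. The deposited table holds 1 FPKM value per gene and heart, summed over transcripts by the authors, on a linear scale. Versions of these tools are not given in the sources used here. Read counts were tested by the study with a count model. Counts were not used here, so the FPKM values were tested as log2(FPKM + 1) with limma 3.58.1 in R 4.3.3.

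The fit had a trend and a mean for each of 16 groups, over the 13653 genes that reached 1 FPKM in 4 or more libraries. P-values were adjusted over all genes (Benjamini-Hochberg, threshold 0.05). Conditions were compared by averaging weekly differences. The unit of replication was the heart. No library was identical to another. The script was tested on simulated data. Relative depth came from 2016 pairs of libraries: ratios of values under 0.05 FPKM gathered at 1 ratio per pair, and 100% of pairs lay within 0.05 (log2) of 1 common scale. Absolute depth is unknown, so no counting intervals are given. Exon overlaps came from GENCODE models on mm9, promoters from RefSeq. Python 3.11.15, numpy 2.4.6, pandas 2.3.3 and matplotlib 3.10.9 were used for the other steps.

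The genes, lists, motifs and tests were chosen with earlier results of these data known. Named are the 8 enzymes, the 3 genes closest to each within groups, the 4 genes of each pathway list with the largest moderated t in the wild type TAC comparison, any list gene called by genotype, and Ndufs4. A gene that this rule names is not reported here. Alternatives were a pseudocount of 0.1, testing all genes, a stricter minimum (5 FPKM), 2 other scalings, no trend, array weights, only the hearts compared, the replicate number as a block, each heart left out in turn, and leaving out the 4 libraries with a length slope. Weekly interactions, the step from week 4 to week 8 and leaving out week 2 were added after seeing the data.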

Additional observations from a re-analysis of the deposited data

Results flagged for a closer look

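Among 128 groups of 4 hearts (8 genes in 16 groups), 16 held a heart far from the other 3 by Dixon's criterion, where chance gives about 1 in 20 groups. In sham hearts, WTSH heart 4 of week 1 was low for Lox (0.567 FPKM, the others 1.01 to 1.03) and Loxl1 (6.52, the others 10.1 to 11.0), in a library of 0.599 times the median depth. KOSH heart 1 of week 4 was high for Lox (3.28, the others 0.965 to 1.07) and Loxl1 (16.6, the others 9.08 to 9.44). KOSH heart 1 of week 1 was low for Loxl2 (3.52), WTSH heart 2 of week 2 was high for Loxl3 (1.86), and KOSH heart 4 of week 2 (7.00) and heart 2 of week 8 (3.61) stood apart for Plod2.

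In TAC hearts, Loxl1 stood apart high in WTTAC heart 4 of week 2 (86.8, the others 22.5 to 26.3) and low in KOTAC heart 2 of week 8 (22.5, the others 37.7 to 39.3), which was also low for Loxl3 (2.96). WTTAC heart 5 of week 1 was low for Loxl3 (3.27, the others 18.7 to 24.8), KOTAC heart 2 of week 4 was high for Loxl3 (7.64), and KOTAC heart 3 of week 1 was high for Loxl4 (1.37). WTTAC heart 3 of week 2 was low for Plod1 (26.4, the others 40.2 to 43.3), and WTTAC heart 7 of week 8 was high for Plod2 (10.4).

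The TAC effect differed between weeks in 13 tests of the 8 genes by limma, on the log2 scale. Some of these calls, among them those of Loxl3, Loxl4 and Plod1, were lost under other settings, as given above. Between weeks 1 and 2 it differed by -1.76 for Lox, -1.32 for Loxl3, -0.45 for Loxl4 and -1.09 for Plod2. Between weeks 1 and 4 it differed by -2.73 for Lox, -1.43 for Loxl1, -1.41 for Loxl2, -1.29 for Loxl3, -0.50 for Loxl4, -0.47 for Plod1, -0.84 for Plod2 and -0.79 for Plod3, and between weeks 1 and 8 by -0.52 for Plod1.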

How the results depend on the processing

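The TAC differences over the mean of 4 weeks kept 8 of 8 calls in each genotype, and in KOTAC against WTSH, under every alternative that was run except the stricter minimum of 5 FPKM, where Loxl4 was not tested and 7 of 7 were called, and no called value changed sign. As reported, limma called 6574 genes higher and 1599 lower in wild type and 6547 and 1915 in knockout. Median-of-ratios scaling gave 3882 and 3790, and 4066 and 4039, and quantile normalization 3454 and 4283, and 3646 and 4580. The median of all genes in wild type went from 0.14 to 0.00 and -0.03, and the 8 enzymes stayed higher (from Plod1, 0.186 and 0.19, to Lox, 2.56 and 2.55). Counts of called enzymes that moved by over 1.5 times were as follows. With array weights, 4 were called at week 4 in wild type (0 without), 8 at week 4 in knockout (5), 5 from week 1 to week 8 (1), 4 from week 4 to week 8 (0), and 1 each in the interaction of week 1 (Loxl4, -0.61) and of week 8 (Plod1, 0.63). Quantile normalization left 5 of 8 from week 1 to week 4, where Loxl3 (-1.10), Loxl4 (-0.29) and Plod1 (-0.28) were lost. Without the 4 length-slope libraries 2 were called from week 1 to week 8, and with only the hearts compared 1 (Loxl2) between sham weeks 1 and 8. The shares of all genes called under these settings are not given here, so these moves are not a result about the enzymes alone. The cause was not tested. Leaving out 1 heart at a time gave 8 calls in each of the comparisons over 4 weeks, 0 to 1 at week 4 in wild type (Loxl1 without WTTAC heart 2), 1 to 7 at week 4 in knockout, 4 to 6 at week 8 in wild type (4 without WTTAC heart 6 or 7, where Loxl4 and Plod3 were lost), 7 to 8 at week 1 in knockout, 5 to 6 at week 2 in each genotype, 4 to 5 from week 1 to week 2, 1 to 5 from week 1 to week 8 (2 without WTTAC heart 7 of week 8) and 0 to 2 from week 4 to week 8 (2, Lox and Loxl4, without heart 2 of week 8 of WTTAC or KOTAC). Calls over all genes, in either direction, moved in the same fits. At week 4 they ran from 1 to 355 in wild type (29 with all hearts) and from 487 to 1873 in knockout (1420). From week 1 to week 8 they ran from 1550 to 2723 (2011), and from week 4 to week 8 from 5 to 367 (49). Over all weeks, hearts with the same replicate number did not deviate together in the median (r 0.02 over 77 pairs, -0.36 to 0.54). At week 2, however, hearts 3 and 4 of both TAC groups shared the length slope, so this median does not speak for every week. Whether the numbers pair hearts within a week was not tested. With the replicate number as a block, all 8 stayed called over 4 weeks, Loxl4 (0.37, adjusted p = 0.146) and Plod3 (0.60, adjusted p = 0.0707) were lost at week 8 in wild type and Plod1 and Plod3 were gained at week 4 in knockout. The precision of the low values of Loxl4 is limited by a depth that is known in relative terms only.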
